A study of Mus musculus with 34 samples.

Results

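A group of 10 genes that mark the birth of neurons and the immature neurons that follow was examined across 3 brain regions and 3 treatments of the mouse. The genes were chosen by symbol: *Dcx*, *Sox11*, *Sox4*, *Igfbpl1*, *Draxin*, *Eomes*, *Dlx1*, *Dlx2*, *Cd24a* and *Mki67*, and all 10 of them were found among the 16389 genes of the table. RNA was read from 34 libraries, each from one region of one male C57BL/6 mouse. Each value is an FPKM, the reads on a gene scaled to its length and to a size of the library. Irradiated mice were 4 months old when they were irradiated. WT CON mice were neither irradiated nor given marrow. GFP-BM CON mice received whole-body irradiation of 1000 cGy and a transplant of bone marrow from CAG-EGFP donors, which express GFP from a broadly active promoter. GFP-BM REPOP mice received the same irradiation and marrow and, 3.5 months later, chow with PLX3397 at 600 ppm for 14 days. PLX3397 inhibits CSF1R, the receptor on which microglia depend, and tissue was taken 6 months after it was withdrawn. Irradiation and marrow transplant always went together, so their effects cannot be told apart, and the 2 irradiated groups are called irradiated mice where they are pooled. The cortex gave 3 libraries from WT CON mice and 4 from each irradiated group, the hippocampus gave 4 from every group, and the thalamus (dissected along with striatum) gave 3 from GFP-BM CON mice and 4 from each of the others.

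New neurons are made in the adult mouse brain mainly in 2 places, the subgranular zone inside the dentate gyrus of the hippocampus and the subventricular zone along the wall of the lateral ventricle beside the striatum, from which neuroblasts migrate to the olfactory bulb. Radial glia-like stem cells give rise to dividing progenitors, these to neuroblasts, and these to immature neurons that send out processes and join circuits. Dividing progenitors in both zones are sensitive to ionizing radiation. *Mki67* encodes Ki-67, a nuclear protein of cycling cells, and *Eomes* encodes Tbr2, a transcription factor of excitatory intermediate progenitors that mitral and tufted cells of the olfactory bulb also express. *Dlx1* and *Dlx2* encode homeodomain factors of the interneuron lineage. *Sox4* and *Sox11* are SoxC transcription factors that switch on neuronal genes in postmitotic precursors. *Dcx* encodes doublecortin, a microtubule-associated protein of migrating neuroblasts, *Igfbpl1* an insulin-like growth factor binding protein-like factor of neuroblasts, *Draxin* a secreted axon guidance cue, and *Cd24a* a surface glycoprotein that is found on neuroblasts and also on ependymal cells.

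Libraries of the hippocampus did not all match their label, and this touched most of the 10 genes. *C1ql2*, a gene of mature dentate granule neurons, lay between 29.3 and 140 FPKM in 9 of the 12 hippocampus libraries. It was at 1.26 FPKM in WT CON replicate 2, 3.32 in GFP-BM REPOP replicate 1 and 0.875 in GFP-BM REPOP replicate 4. Other granule genes, *Prox1* and *Calb1*, did not set these libraries apart as clearly. *Prox1* was at 0.834, 1.04 and 2.80 FPKM in them, but also at 2.75 in WT CON replicate 1. *Calb1* was at 26.2, 29.8 and 37.3 FPKM in them, within the 13.1 to 40.5 of the remaining hippocampus libraries. WT CON replicate 2 and GFP-BM REPOP replicate 1 also held transcripts of the olfactory bulb. *Doc2g*, a gene of mitral and tufted cells, was at 165 FPKM in WT CON replicate 2 and 70.1 in GFP-BM REPOP replicate 1, and WT CON replicate 3 held a smaller amount, at 17.5 FPKM. The summed level of 10 olfactory bulb genes ran from 17.8 to 618 FPKM in WT CON, from 22.7 to 26 in GFP-BM CON and from 20 to 377 in GFP-BM REPOP hippocampus libraries. *Drd1*, a gene of striatal neurons, was highest in GFP-BM REPOP replicate 4, at 46.9 FPKM, and was at 10.7, 16.9 and 17.9 FPKM in WT CON replicates 1, 2 and 3, against 1.20 to 4.37 in the other hippocampus libraries. The 10 striatum genes listed summed to 569, 879, 796 and 128 FPKM in WT CON, to between 172 and 205 in GFP-BM CON, and to 159, 260, 162 and 2129 in GFP-BM REPOP hippocampus libraries. They were thus higher in most WT CON than in most irradiated libraries, and their part in the hippocampus differences given here was not tested. Genes of ependymal cells, which line the ventricles, were high in another pair of libraries, with *Foxj1* at 21.3 FPKM in WT CON replicate 1 and 28.6 in GFP-BM CON replicate 4, against 2.48 to 7.71 in the other hippocampus libraries. In the cortex, GFP-BM CON replicate 1 held *Doc2g* at 28.4 FPKM, where the others lay between 3.31 and 7.66. *Omp*, another olfactory gene, ordered the cortex libraries otherwise. It was at 25.5 FPKM in GFP-BM REPOP, 5.69 in GFP-BM CON and 5.11 in WT CON replicate 1, against 0.146 to 0.739 in the others. In the hippocampus *Omp* was at 102 FPKM in GFP-BM REPOP replicate 1, 45.5 in WT CON replicate 2 and 9.50 in GFP-BM REPOP replicate 2. The remaining hippocampus libraries had 0.111 to 0.663. The 10 genes of a thalamus list summed to between 208 and 384 FPKM in thalamus libraries and to between 74.9 and 142 in the cortex, without overlap. The striatum genes, of the other tissue in that dissection, did not set the 2 regions apart, at 313 to 1251 FPKM in thalamus libraries (315 to 1251 within WT CON) and 313 to 811 in the cortex. Hippocampus results are given for all libraries. The difference between irradiated and WT CON mice is also given without the 3 libraries low in *C1ql2* for *Igfbpl1*, *Eomes*, *Dlx1*, *Dlx2*, *Sox4* and *Cd24a*. The same holds for the calls between WT CON hippocampus and another region.

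The clearest movement among the 10 genes was in the thalamus with striatum, where *Sox11* was higher after irradiation and *Dcx* lay above it in size but short of the threshold. *Sox11* (Entrez 20666, chr12:27334268-27342718 in GRCm38) was at 1.94, 0.744, 1.46 and 1.76 FPKM in WT CON libraries, 2.56, 2.55 and 2.5 in GFP-BM CON libraries, and 2.57, 2.95, 2.99 and 2.55 in GFP-BM REPOP libraries. All 7 irradiated libraries lay above all 4 WT CON libraries, and the 2 irradiated groups overlapped each other. On the log2(FPKM + 0.1) scale, on which all differences are given here, irradiated mice exceeded WT CON mice by 0.88 (SE 0.216; adjusted p = 0.0412, limma-trend with Benjamini-Hochberg adjustment over 14710 genes). With median-ratio scaling of the libraries the difference was 0.89 and not called (adjusted p = 0.0517). *Sox11* was the 1 gene called of the 8 tested from the group, a count too small to set the group apart from all genes. Of all genes tested, 5.53% were called in this comparison, 5.02% higher and 0.517% lower, and in 13.7% the irradiated and WT CON libraries did not overlap. Against WT CON mice alone, the difference was 0.82 for GFP-BM CON mice (adjusted p = 0.156) and 0.93 for GFP-BM REPOP mice (adjusted p = 0.0749). Libraries of these groups did not overlap for *Sox11* either, as was so for 23.1% and 18.8% of all genes tested.

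*Dcx* (Entrez 13193, chrX:143855842-143933396) was at 2.31, 0.351, 0.611 and 1.09 FPKM in WT CON thalamus libraries, 2.51, 2.90 and 2.23 in GFP-BM CON libraries, and 2.08, 3.24, 2.80 and 1.80 in GFP-BM REPOP libraries. WT CON replicate 1 reached into the range of the irradiated mice, and the other 3 WT CON libraries lay below all of them. The difference between irradiated and WT CON mice was 1.39 (SE 0.384; adjusted p = 0.0616). Without WT CON replicate 1 it was 1.83 and *Dcx* was called (adjusted p = 0.00371), in a fit that called 20.7% of all genes.

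The thalamus libraries of WT CON mice also differed from those of irradiated mice, and among themselves, in the balance between genes of high and low GC content. As a measure of it, the median log2 level of the 1387 tested genes with the least GC in their transcript was subtracted from that of the 1387 with the most. It was 1.09, 3.65, 2.17 and 1.42 in WT CON libraries, 0.585, 0.458 and 0.832 in GFP-BM CON libraries, and 0.724, 0.520, 0.507 and 0.939 in GFP-BM REPOP libraries. All WT CON libraries lay above all irradiated ones, and replicate 2, the highest, was the library with the least *Dcx* and the least *Sox11*. That library stood apart in other ways. Its 10 astrocyte genes summed to 1562 FPKM, where the remaining WT CON thalamus libraries had 1113 to 1211. Lists of 10 genes each for microglia and macrophages (266 against 167 to 186) and oligodendrocyte precursors (243 against 159 to 189) also summed higher. So did single markers of other tissue, *Th* (40.2 FPKM against 7.16 to 10.6), *Omp* (5.59 against 0.245 to 0.528) and *C1ql2* (31.5 against 9.29 to 11.3). Single GFP-BM REPOP thalamus libraries were as high in *Omp* (6.94, replicate 1) and *C1ql2* (31.9, replicate 4). The part of these differences in the result was not tested. The *Dcx* transcript has a GC content of 40.6%, lower than in all but 7.1% of tested genes, and that of *Sox11* is 46.5%. Once each library was corrected for GC content and transcript length, the *Dcx* difference was 0.18 (SE 0.166; adjusted p = 0.514) and that of *Sox11* 0.37 (SE 0.0971; adjusted p = 0.0435). The corrected fit called 3.42% of genes higher and 4.29% lower, so that most calls were no longer rises. The part of GC content in the uncorrected differences was not tested further. Without the correction, *Sox11* was called in 3 of 11 fits with a single library removed, those without WT CON replicate 1 (adjusted p = 0.0142), 2 (0.0328) or 4 (0.0419), and it was lost without WT CON replicate 3 (adjusted p = 0.119) or any one of the irradiated libraries (0.066 to 0.0982). Calls over all genes ran from 26 to 3047 in these fits.

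**Figure D1:**
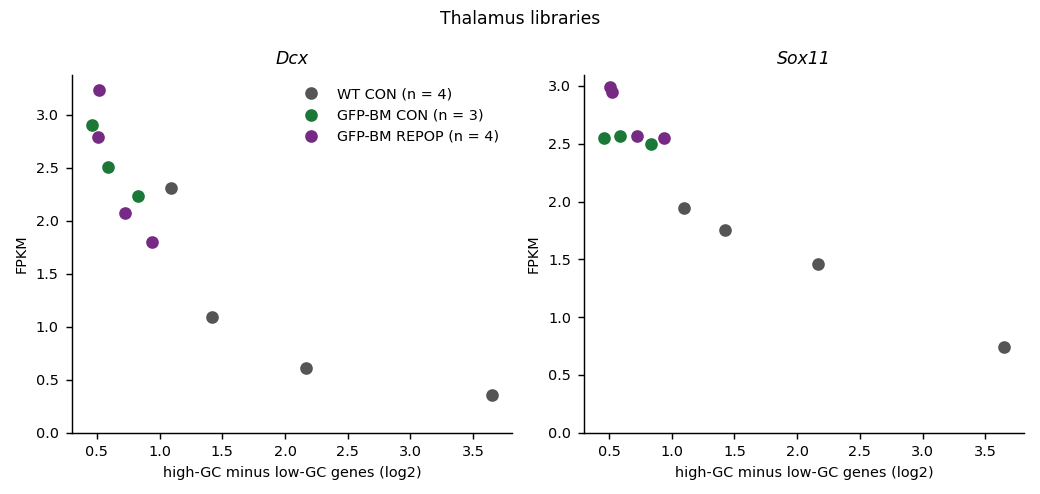
Thalamus libraries, 1 point each and coloured by treatment, with the level of *Dcx* (left) and of *Sox11* (right) in FPKM on the vertical axes against the GC measure of the library on the horizontal axis (log2 level of high-GC minus low-GC genes). The 4 WT CON libraries lie between 1.09 and 3.65 on the horizontal axis, to the right of every irradiated library, and the one farthest right is the lowest for both genes.

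The other 6 genes tested moved less in the thalamus. *Sox4* (Entrez 20677, chr13:28948919-28953699) averaged 4.43 ± 1.69 FPKM in the 4 WT CON libraries, 5.22 ± 0.347 in the 3 of GFP-BM CON and 5.83 ± 0.473 in the 4 of GFP-BM REPOP (mean ± SD), a difference of 0.41 for irradiated mice (SE 0.236; adjusted p = 0.226). For *Dlx1* the difference was 0.34 (adjusted p = 0.244), for *Dlx2* 0.13 (0.757), for *Eomes* 0.17 (0.859), for *Cd24a* -0.35 (0.225) and for *Igfbpl1* -0.64 (0.234), and for each of these genes the groups overlapped. *Cd24a*, whose transcript has a GC content of 43%, moved away from 0 under the correction that brought *Dcx* close to it, to -0.87 (adjusted p = 0.0713). In all, 6 of the 8 genes had a difference above 0 and 2 below, with a median of 0.26, where the median of all genes tested was -0.062.

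The start of the *Sox11*, *Sox4* and *Dlx2* genes can be shown from the RefSeq annotation of GRCm38.p6. The SoxC pair and *Dlx2* are printed because *Sox11* carries the thalamus call, *Sox4* is its close relative for comparison and *Dlx2* was called between regions, and because their windows lie wholly before the gene. Each sequence is the 250 bases before the annotated start, read 5′ to 3′ on the minus strand, from chr12:27342719-27342968 for *Sox11*, chr13:28953700-28953949 for *Sox4* and chr2:71546755-71547004 for *Dlx2*. Capitals mark matches, on either strand, to the E-box CAGCTG, the E-box CATCTG, the CCAAT box and the TATA sequence TATAAA, of which CATCTG and TATAAA have no match in these windows.
Sox11: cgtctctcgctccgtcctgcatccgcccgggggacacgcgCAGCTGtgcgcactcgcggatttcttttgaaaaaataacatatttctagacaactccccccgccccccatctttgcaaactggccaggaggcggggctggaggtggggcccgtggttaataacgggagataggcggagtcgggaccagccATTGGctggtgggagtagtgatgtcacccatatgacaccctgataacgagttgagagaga
Sox4: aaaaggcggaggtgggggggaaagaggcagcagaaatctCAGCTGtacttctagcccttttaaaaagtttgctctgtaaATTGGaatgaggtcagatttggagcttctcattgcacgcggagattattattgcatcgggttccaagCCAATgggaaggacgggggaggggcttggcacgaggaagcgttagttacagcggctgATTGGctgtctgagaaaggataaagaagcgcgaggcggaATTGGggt
Dlx2: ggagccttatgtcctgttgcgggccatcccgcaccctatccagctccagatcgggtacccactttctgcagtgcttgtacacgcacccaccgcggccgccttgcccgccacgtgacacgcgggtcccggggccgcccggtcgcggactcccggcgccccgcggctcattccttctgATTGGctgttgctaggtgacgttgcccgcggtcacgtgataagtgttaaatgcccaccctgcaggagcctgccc
The 2 SoxC windows each hold CAGCTG and at least one CCAAT box, the latter mostly as ATTGG on the complementary strand, and the *Dlx2* window holds a CCAAT box alone. Windows were found for 8 of the 10 genes, 9 windows in all, since *Dcx* has 2 starts, and none was found for *Igfbpl1* and *Cd24a*. CAGCTG was in those of *Sox11*, *Sox4* and *Draxin*, 3 of 9, and in 13.0% of the 32851 windows of the annotation. CCAAT was in windows of *Dlx2*, *Mki67*, *Eomes*, *Sox11*, *Sox4* and *Dcx*, 6 of 9, and in 33.8% of all windows. TATAAA was in both *Dcx* windows, which overlap and share the same site, and in 12.4% of all. CATCTG was in 0 of 9 and in 14.4% of all. The GC content of the windows shown was 58.0% for *Sox11*, 50.8% for *Sox4* and 66.4% for *Dlx2*, beside a median of 52.4% over all windows.

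In the hippocampus, which holds the subgranular zone, none of the 8 genes tested was called between irradiated and WT CON mice, by limma-trend or by voom on recovered reads, and 1 of them, *Igfbpl1*, had an unadjusted p under 0.05. The share of all genes called there was 0%. *Igfbpl1* (Entrez 75426, chr4:45809507-45826827) was at 2.46, 4.83, 2.00 and 0.307 FPKM in WT CON libraries, 0.635, 0.769, 0.328 and 2.68 in GFP-BM CON libraries, and 0.769, 0.122, 0.102 and 0.658 in GFP-BM REPOP libraries. All but one of the WT CON libraries lay above all but one of the irradiated libraries, and the groups overlapped through WT CON replicate 4 and GFP-BM CON replicate 4. The difference was -1.54 for irradiated mice (SE 0.692; adjusted p = 0.244, limma-trend) and -2.13 for GFP-BM REPOP mice (adjusted p = 0.464). Without the 3 libraries low in *C1ql2* the first of these was -1.55 (adjusted p = 0.489), and without the 2 high in *Foxj1* it was -1.64. The counts behind these values were small, with 17 to 271 reads a library in WT CON and 6 to 136 in irradiated mice.

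*Dcx* in the hippocampus showed no difference that could be told from the spread within groups. It was at 0.128, 2.27, 1.66 and 0.210 FPKM in WT CON, 0.816, 1.22, 2.35 and 0.382 in GFP-BM CON, and 1.90, 0.767, 0.244 and 1.20 in GFP-BM REPOP libraries. Within WT CON mice alone the lowest and the highest library enclosed every GFP-BM REPOP library. The difference for irradiated mice was 0.46 with an SE of 0.704 (adjusted p = 0.76), and it was -0.34 (SE 0.539) after correction for GC content and length. The GC measure ran from 1.75 to 3.39 in WT CON, 0.72 to 2.08 in GFP-BM CON and 1.47 to 2.61 in GFP-BM REPOP hippocampus libraries. These are pieces of whole tissue, in which fewer cells of a type and less RNA per cell cannot be told apart.

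*Eomes*, *Dlx1*, *Dlx2* and *Sox4* were each highest in the hippocampus library with the most olfactory bulb transcripts. *Eomes* (Entrez 13813, chr9:118478186-118486132) was at 0.0565, 17.0, 1.33 and 0.0266 FPKM in WT CON, 0, 0.418, 0.350 and 1.64 in GFP-BM CON, and 13.0, 0.0893, 0.338 and 0.0127 in GFP-BM REPOP libraries. *Dlx1* (Entrez 13390, chr2:71528113-71533981) was at 5.15, 40.8, 11.9 and 3.44 FPKM in WT CON, between 4.30 and 6.69 in GFP-BM CON, and at 16.9, 3.22, 4.00 and 4.30 in GFP-BM REPOP libraries. *Dlx2* (Entrez 13392, chr2:71543408-71546754), which lies 9426 bases from *Dlx1*, was at 4.41, 21.1, 6.08 and 1.97 FPKM in WT CON, between 2.00 and 3.26 in GFP-BM CON, and at 8.27, 2.06, 2.59 and 2.56 in GFP-BM REPOP libraries. For all 3 genes the highest library was WT CON replicate 2 and the next was GFP-BM REPOP replicate 1, the 2 libraries in which *Doc2g* was highest. Differences between irradiated and WT CON mice were -0.70 for *Eomes* (SE 1.48), -0.81 for *Dlx1* (SE 0.59), -0.97 for *Dlx2* (SE 0.522) and -0.18 for *Sox4* (SE 0.451). Without the 3 libraries low in *C1ql2* they were 0.24, -0.42, -0.60 and 0.26, so that *Eomes* and *Sox4* turned direction. Without WT CON replicate 2 alone *Dlx1* stood at -0.12 and *Dlx2* at -0.36. The part of olfactory bulb tissue in these differences was not tested beyond that.

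*Cd24a* (Entrez 12484, chr10:43579169-43584265) followed the ependymal libraries in part. It was at 9.59, 8.54, 5.32 and 1.49 FPKM in WT CON, 1.77, 3.49, 3.25 and 10.5 in GFP-BM CON, and 5.11, 4.02, 2.28 and 2.60 in GFP-BM REPOP hippocampus libraries. The 2 highest values belonged to the 2 libraries high in *Foxj1*, the third to WT CON replicate 2, and the groups overlapped widely. The 10 ependymal genes listed summed to between 14.3 and 129 FPKM in WT CON, 11.6 and 202 in GFP-BM CON, and 18.9 and 45.2 in GFP-BM REPOP libraries. The *Cd24a* difference for irradiated mice was -0.50 (SE 0.517; adjusted p = 0.624), -0.44 without the libraries high in *Foxj1* and -0.32 without those low in *C1ql2*. For *Sox11* it was -0.16 (SE 0.34; adjusted p = 0.833). Over all hippocampus libraries, 1 of the 8 genes had a difference above 0 and 7 below, with a median of -0.60 beside -0.019 for all genes tested. This count did not hold without the 3 libraries low in *C1ql2*, where *Eomes* and *Sox4* also lay above 0.

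**Figure D2:**
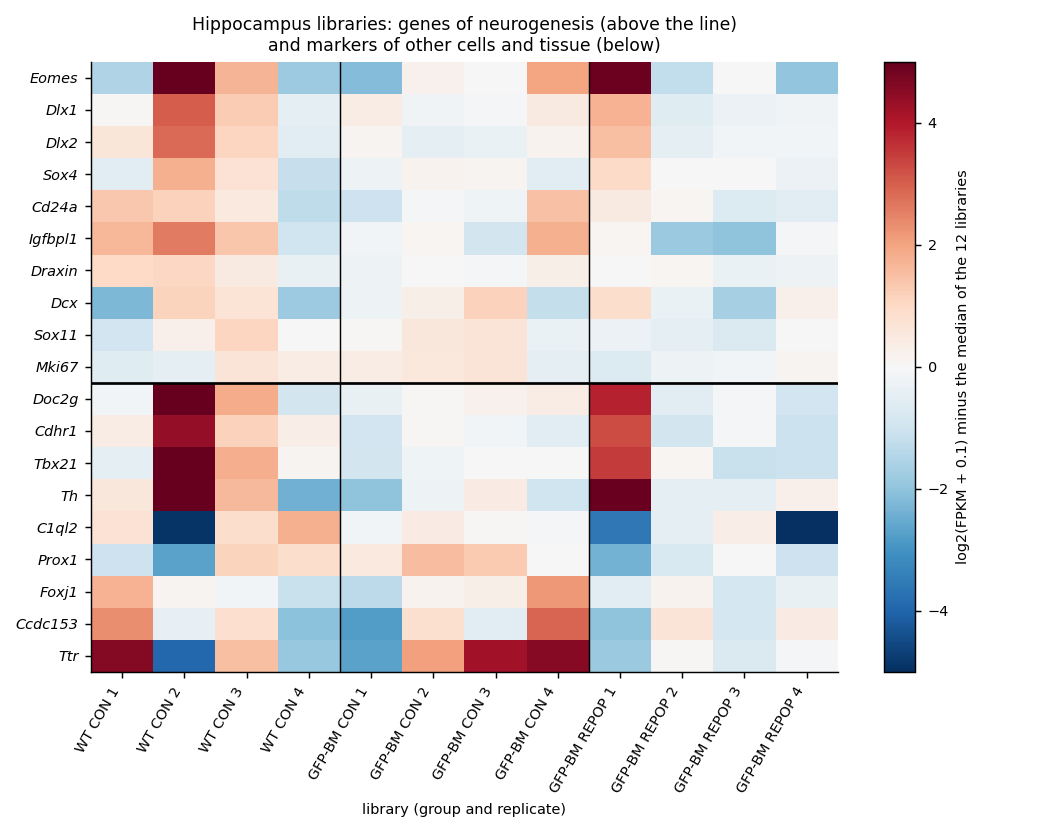
Hippocampus libraries in columns, by treatment and replicate, and genes in rows, with colour giving the log2(FPKM + 0.1) level of a gene minus its median over these libraries, capped at 5 in either direction. The 10 genes stand above marker genes of the olfactory bulb, dentate granule neurons, ependyma and choroid plexus, and WT CON replicate 2 and GFP-BM REPOP replicate 1 are high for *Eomes*, *Dlx1*, *Dlx2* and *Doc2g* and low for *C1ql2*.

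In the cortex, which has no neurogenic zone of its own, 0 of the 8 genes were called between irradiated and WT CON mice by limma-trend or voom, where 0.809% of all genes were. An unadjusted p under 0.05 was reached by 3, *Dcx*, *Sox4* and *Eomes*. *Dcx* was at 3.82, 2.25 and 4.23 FPKM in WT CON, 6.12, 5.35, 5.55 and 4.47 in GFP-BM CON, and 2.71, 4.86, 4.60 and 5.75 in GFP-BM REPOP libraries. GFP-BM CON libraries lay above all WT CON libraries, and GFP-BM REPOP libraries overlapped both groups. The difference for irradiated mice was 0.52 (SE 0.222; adjusted p = 0.246), and it was 0.25 without WT CON replicate 2 and 0.18 after correction for GC content and length. The GC measure was between 0.76 and 1.25 in WT CON, 0.43 and 0.58 in GFP-BM CON, and 0.41 and 0.99 in GFP-BM REPOP cortex libraries. *Sox4* differed by 0.19 (SE 0.0799; adjusted p = 0.241), with means ± SD of 6.02 ± 0.38 FPKM in 3 WT CON, 7.07 ± 0.63 in 4 GFP-BM CON and 6.72 ± 0.615 in 4 GFP-BM REPOP libraries.

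*Eomes* in the cortex was at 0.0966, 0.0117 and 0.0663 FPKM in WT CON, 3.20, 0.151, 0.623 and 0.272 in GFP-BM CON, and 0.391, 0.417, 0.0804 and 0.112 in GFP-BM REPOP libraries. Its highest value was in GFP-BM CON replicate 1, the cortex library high in *Doc2g*, which was also the highest for *Dlx1*, at 11.1 FPKM against 4.36 to 6.52 in the others. The difference for irradiated mice was 1.59 (SE 0.664; adjusted p = 0.236) at levels of 1 to 8 reads a library in WT CON mice. For GFP-BM CON against WT CON 0 of 8 genes were called, where 0.320% of all genes were, and for *Dcx*, *Sox4* and *Eomes* the libraries did not overlap, which was so for 16.0% of all genes. For the other 5 genes the difference for irradiated mice lay between -0.02 and 0.36. In all, 7 differences were above 0 and 1 below, with a median of 0.22 beside 0.017 for all genes tested.

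**Figure D3:**
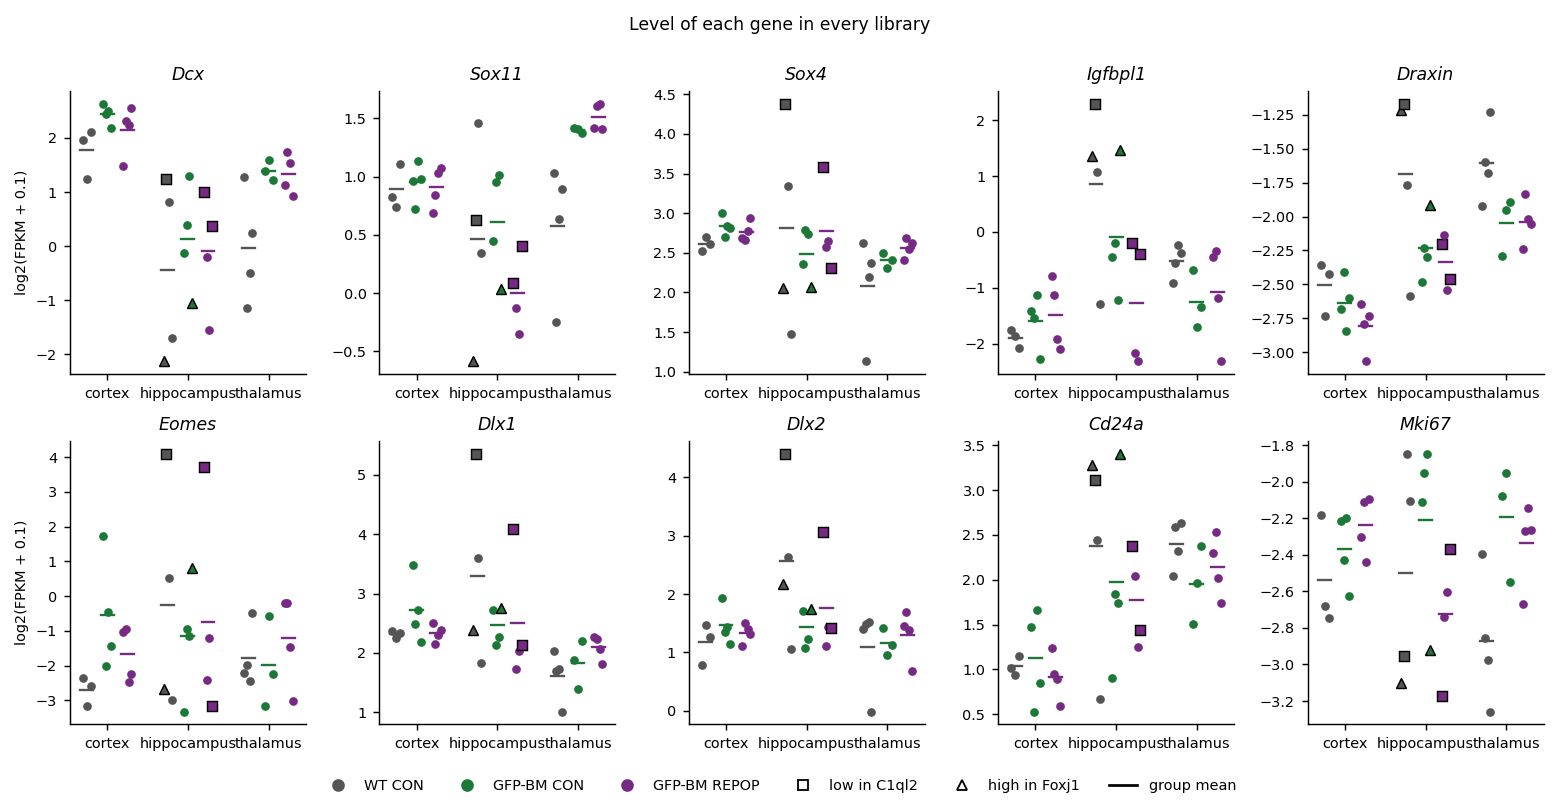
Level of each of the 10 genes in each library, on a vertical axis of log2(FPKM + 0.1), by region and treatment, with 1 point a library and a bar at the group mean (squares are hippocampus libraries low in *C1ql2*, triangles those high in *Foxj1*). The 7 irradiated thalamus libraries lie above the 4 WT CON libraries for *Sox11*, and single WT CON and GFP-BM REPOP hippocampus libraries stand far above the rest for *Eomes*, *Dlx1* and *Dlx2*.

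Repopulation with marrow-derived cells on top of irradiation moved none of these genes past the threshold. For GFP-BM REPOP against GFP-BM CON, differences of the 8 genes ran from -1.13 to 0.11 in the cortex, from -1.17 to 0.40 in the hippocampus and from -0.07 to 0.78 in the thalamus. The number called was 0 in each region by limma-trend and by voom, and 0 had an unadjusted p under 0.05. Among all genes tested the share called was 0.0476% for the cortex, 0.0272% for the hippocampus and 0% for the thalamus. Against WT CON mice, the GFP-BM REPOP group had 0 of 8 called in the cortex (0.734% of all genes; 0 of 8 at an unadjusted p under 0.05), the hippocampus (0.0136%; 1 of 8) and the thalamus (0.836%; 2 of 8). The GFP-BM CON group had 0 of 8 called in the hippocampus (0%; 0 of 8) and the thalamus (0%; 2 of 8), and 3 of 8 had an unadjusted p under 0.05 in the cortex. Voom gave 0 in all of these too. Both irradiated groups were set against one and the same set of WT CON libraries, so these comparisons are not independent of each other.

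**Figure D4:**
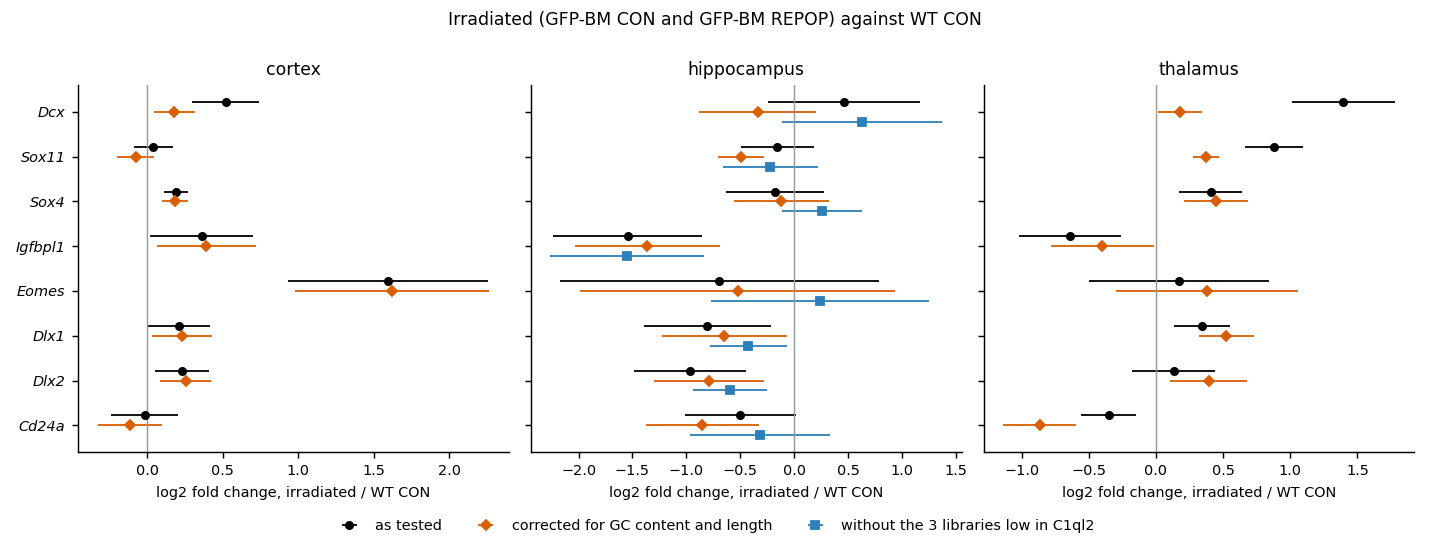
Difference between irradiated and WT CON mice (log2 scale, horizontal axis) for each of the 8 genes tested, 1 panel a region, with bars of 1 standard error. Circles show the values as tested, diamonds those after correction for GC content and length, and squares, in the hippocampus, those without the 3 libraries low in *C1ql2*. In the thalamus *Sox11* stands at 0.88 and *Dcx* at 1.39 as tested and at 0.37 and 0.18 after correction, and the bars are widest for *Eomes* in the hippocampus.

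*Mki67* and *Draxin* stayed under the filter of 1 FPKM in at least 3 libraries, and were compared by exact permutation tests. *Mki67* (Entrez 17345, chr7:135689784-135716450) did not exceed 0.178 FPKM, or 1 to 41 reads, in any library. In the thalamus it was at 0.0899, 0.0381, 0.0274 and 0.00456 FPKM in WT CON, 0.137, 0.159 and 0.0710 in GFP-BM CON, and 0.0574, 0.107, 0.126 and 0.109 in GFP-BM REPOP libraries. The groups overlapped only through WT CON replicate 1, and the difference for irradiated mice was 0.60 (two-sided exact permutation test, p = 0.0182, adjusted p = 0.218 over 24 tests). *Draxin* (Entrez 70433, chr4:148098437-148131139) did not exceed 0.346 FPKM, or 2 to 41 reads. It was at 0.164, 0.231, 0.212 and 0.327 FPKM in WT CON, 0.104, 0.159 and 0.170 in GFP-BM CON, and 0.111, 0.181, 0.147 and 0.140 in GFP-BM REPOP thalamus libraries. WT CON replicate 1 lay within the irradiated range and the others above it, with a difference of -0.43 (exact permutation test, p = 0.0182, adjusted p = 0.218). In the hippocampus the difference was -0.60 for *Draxin* (exact permutation test, p = 0.0566, adjusted p = 0.274) and 0.04 for *Mki67* (p = 0.905). Of the 24 tests 0 passed after adjustment and 2 had a p under 0.05.

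The level of the genes in unirradiated brain differed by region. In WT CON cortex the order by mean was *Sox4* at 6.02 FPKM, *Dlx1* at 4.90, *Dcx* at 3.43, *Dlx2* at 2.20, *Cd24a* at 1.96, *Sox11* at 1.76, *Igfbpl1* at 0.169, *Draxin* at 0.0773, *Mki67* at 0.0751 and *Eomes* at 0.0582. *Dlx2*, *Cd24a* and *Sox11* overlapped each other there, as did the 3 lowest genes. In WT CON thalamus *Cd24a* led at 5.24 ± 0.975 FPKM (SD, n = 4), followed by *Sox4* at 4.43 ± 1.69, and these overlapped. In WT CON hippocampus the means were led by *Dlx1* at 15.3 ± 17.4 FPKM, *Sox4* at 9.38 ± 8.23 and *Dlx2* at 8.38 ± 8.62 (SD, n = 4), spreads about as large as the means.

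Between the WT CON hippocampus and cortex, 3 of the 8 genes tested were called higher in the hippocampus and 1 lower, where 15.7% of all genes were called higher and 21.2% lower. *Igfbpl1* was higher in the hippocampus by 2.76 (SE 0.669; adjusted p = 0.00264, limma-trend over 9 groups, animals as random blocks). It was called in all 11 fits with a single WT CON library removed (2.28 to 3.47), at 2.29 without the libraries low in *C1ql2* (adjusted p = 0.00772), and at 2.46 after correction for GC content and length (adjusted p = 0.00426). Hippocampus replicates 1, 2 and 3, which held transcripts of ependyma, olfactory bulb or striatum, were at 2.46, 4.83 and 2.00 FPKM. Replicate 4, with *Drd1* at 1.2 FPKM and *Foxj1* at 2.85, was at 0.307, against 0.135 to 0.197 in WT CON cortex. All of these fits kept libraries with such tissue, so they cannot set it apart from the region, and its part was not tested. *Dcx* was lower in the hippocampus by -2.22 (SE 0.655; adjusted p = 0.0102), or -2.76 without the libraries low in *C1ql2* (adjusted p = 0.00208), but -0.73 after the GC and length correction (adjusted p = 0.222), and it was not called without hippocampus replicate 1. *Dlx2* was higher by 1.39 (adjusted p = 0.0324) but not called without the libraries low in *C1ql2* (0.79, adjusted p = 0.102) or after GC and length correction (1.08, adjusted p = 0.0809). *Cd24a* was higher by 1.34 (adjusted p = 0.0291), 1.92 after GC and length correction (adjusted p = 0.00384), and 1.10 without the libraries low in *C1ql2* (adjusted p = 0.0899). *Dlx2* was lost without cortex replicate 1 or 3 or hippocampus replicate 2, and *Cd24a* without any cortex replicate or hippocampus replicate 1 or 2.

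Between the WT CON thalamus and cortex, 1 gene was called higher in the thalamus, *Cd24a* by 1.37 (SE 0.478; adjusted p = 0.0336), and 1 lower, *Dcx* by -1.81 (SE 0.655; adjusted p = 0.0389), where 13.0% and 17.0% of all genes were called. *Dcx* stood at -0.81 after correction for GC content and length (adjusted p = 0.181) and *Cd24a* at 1.74 (adjusted p = 0.011). *Cd24a* was lost without any cortex replicate or thalamus replicate 2 or 4, and *Dcx* without cortex replicate 1 or 3 or thalamus replicate 2 or 3. Between the WT CON hippocampus and thalamus, *Dlx1* was higher in the hippocampus by 1.67 (SE 0.498; adjusted p = 0.0201) and *Dlx2* by 1.46 (SE 0.47; adjusted p = 0.0308), 2 of 8 where 9.88% of all genes were called higher. Without the libraries low in *C1ql2* the differences were 0.98 (adjusted p = 0.032) and 0.85 (adjusted p = 0.0944). Both were lost without hippocampus replicate 2 or thalamus replicate 4, and *Dlx2* also without hippocampus replicate 3.

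Whether a treatment effect differed between regions was tested as a difference of differences. None of the 8 genes was called in any of the 12 such contrasts by limma-trend, in which 0.177%, 0.0340%, 0.0340% and 0.0272% of all genes were called in 4 contrasts and 0% in the other 8. The *Sox11* effect of irradiation in the hippocampus minus that in the thalamus was -1.03 (adjusted p = 0.878), and for GFP-BM REPOP against WT CON mice it was -1.40 (adjusted p = 0.266). At most 1 of the 8 genes in a contrast had an unadjusted p under 0.05, *Sox11*, *Igfbpl1* or *Dlx2*. That *Sox11* passed in the thalamus and not in the other regions therefore does not show a difference between regions.

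Other genes of the same stages were read from 4 lists. The list of neural stem cells and radial glia-like progenitors had 16 genes tested, of which 0 were called between irradiated and WT CON mice in any region, with a cortex median of 0.003, a hippocampus median of 0.052 and a thalamus median of 0.082. Its smallest p values belonged to *Sox9* in the cortex (-0.20, adjusted p = 0.141), *Lpar1* in the hippocampus (0.55, adjusted p = 0.273) and *Notch1* in the thalamus (-0.32, adjusted p = 0.105). *Notch1* encodes a receptor that helps keep neural stem cells undifferentiated. Of the 21 genes tested from the list of intermediate progenitors and neuroblasts, 1 was called higher in the thalamus and 0 in the other regions, with medians of 0.061, -0.080 and -0.050. A count of 1 in 21 is close to the 5.02% of all genes called higher there. It was *Elavl4*, which encodes the neuronal RNA-binding protein HuD, which averaged 5.92 ± 5.31 FPKM in 4 WT CON and 19.1 ± 3.52 in 7 irradiated libraries, mean ± SD (difference 2.21, SE 0.522, adjusted p = 0.0356). The *Elavl4* difference was 1.15 after correction for GC content and length (adjusted p = 0.0516), and 0 genes of that list were then called in the thalamus. In the hippocampus it was 1.74 (SE 0.375; adjusted p = 0.136).

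The list of the subventricular zone and olfactory bulb interneuron lineage, to which *Dlx1* and *Dlx2* belong in kind, had 15 other genes tested and 0 called in any region. Differences were above 0 for 14 of the 15 in the cortex (median 0.235) and in the thalamus (median 0.247), and for 3 in the hippocampus (median -0.408). Medians of all genes tested were 0.017, -0.062 and -0.019. The list summed to as much as 721 FPKM in a WT CON hippocampus library (group median 253) and 343 in a GFP-BM CON cortex library (group median 274). The part of olfactory bulb transcripts in these differences was not tested. Those with the smallest p were *Gad2*, an enzyme of GABA synthesis, in the cortex (0.31, adjusted p = 0.263), and *Etv1* in the thalamus (0.68, adjusted p = 0.0739) and hippocampus (0.63, adjusted p = 0.174). *Gad2* stood at 1.45 in the thalamus (adjusted p = 0.0843). After correction for GC content and length 10 of 15 lay above 0 in the thalamus, and 1 gene was called lower there, *Pbx3* (-0.98, adjusted p = 0.0303), a homeodomain factor. That correction also called *Notch1* (-0.50, adjusted p = 0.0474) of the stem cell list and *Hmgb2* (-1.11, adjusted p = 0.0409) of the cell cycle list lower in the thalamus, where 4.29% of all genes were called lower, and these were named after their values were seen. Of 27 cell cycle genes listed, 12 passed the filter and 0 were called, with medians of -0.006, -0.153 and -0.047. Among them were *Mcm5*, of the replicative helicase (-0.44, adjusted p = 0.0933), and *Prc1*, of the central spindle (0.96, adjusted p = 0.0933), both in the thalamus. For GFP-BM REPOP against GFP-BM CON 0 genes were called from any of the 4 lists in any region.

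Over the 34 libraries, with the mean of each region subtracted, genes whose level was among the most like that of *Dcx* were *Fam184a* (Pearson r = 0.945), *Fgf12* (0.92), *Krt20* (0.916) and *Rasa2* (0.904). The transcripts of these 4 have a GC content, between 39.8% and 49.5%, under the median of 50.1% of tested transcripts, and the libraries share the differences in GC balance given above. Chosen after their values were seen were *Dlx1* and *Dlx2*, whose r with each other was 0.911, and *Eomes* with *Doc2g* (0.884), over libraries that share the olfactory bulb transcripts. These are descriptions of the same 34 libraries.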

How the data were processed

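RNA with a RIN of at least 7 was sequenced by the authors as paired-end reads, aligned with STAR v.2.5.1b, counted per Entrez gene with Rsubread and deposited as FPKM, which the methods call RPKM and which were made with edgeR and limma. The submitters' processing notes name mm10. Whether a step used strand is not given in the sources used here. Reads recovered from the steps between FPKM values (100.0% whole) numbered 17085018 to 26010509 per library, with a median of 21367227. Library sizes behind the FPKM were not a fixed multiple of these reads. Their ratio to the reads, taken relative to its geometric mean, ran from 0.929 to 1.10 across libraries.

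Of 16389 genes, 15053 reached 1 FPKM in at least 3 libraries, and 14710 were tested after 343 of other biotypes were left out. Log2(FPKM + 0.1) was compared by limma-trend (limma 3.58.1, R 4.3.3), in two-sided tests called at 0.05 after Benjamini-Hochberg adjustment, in one fit per region with 3 groups. Regions were compared in one fit of 9 groups with the animal, taken from the labels, as a random block. The scripts were tested on simulated data. The rest was done in Python 3.11.15 (pandas 2.3.3, numpy 2.4.6, scipy 1.17.1; plots by matplotlib 3.10.9). Coordinates and promoter windows came from RefSeq for GRCm38.p6, the assembly of mm10, which matched 15947 gene IDs. GC content (94.3% of tested genes) and length were those of the longest GENCODE transcript of each gene. The correction for GC content and length subtracted splines with 5 degrees of freedom from each library.

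The 10 genes and the lists were chosen with earlier results of these data known. Genes named were all 10, from each of the 4 neurogenesis or cell cycle lists the genes called (at most 4) or else up to 2 with the smallest p, and the 5 genes most correlated with *Dcx*, of which 1 is not reported here. The olfactory bulb list and the settings without libraries low in *C1ql2* (under 5 FPKM) or high in *Foxj1* (over 20 FPKM) were chosen after the data were seen.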

Additional observations from a re-analysis of the deposited data

Results flagged for a closer look

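Groups of 4 libraries were checked for one that lay far from the other 3, by the gap to its neighbour as a share of the range, for each gene, region and treatment. Of 70 groups checked, 2 were picked out, and chance picks out about 1 in 20. In GFP-BM REPOP hippocampus libraries *Dlx2* was at 8.27 FPKM in replicate 1, where the others lay between 2.06 and 2.59. That library also held olfactory bulb transcripts (*Doc2g* at 70.1 FPKM) and little *C1ql2*, and the part of these in the value was not tested. In WT CON thalamus libraries *Dlx2* was at 0.892 FPKM in replicate 4, where the others lay between 2.54 and 2.77.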

How the results depend on the processing

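Of the 8 genes tested, the number called changed under these settings. Between irradiated and WT CON thalamus it was 1 and became 0 with median-ratio scaling, 2 with a pseudocount of 1, 2 with quantile normalization, 2 with voom, and 0 to 2 with one library left out. The additions were *Dcx*, at adjusted p = 0.0465, 0.0458 and 0.0456. It was 1 in place of 0 for GFP-BM REPOP against WT CON thalamus with all 9 groups in one fit, and 0 to 2 with one library left out, as for GFP-BM CON against WT CON thalamus. For WT CON hippocampus against cortex it was 2 in place of 4 after the GC and length correction and 2 without the libraries low in *C1ql2* (2 to 5 with one library left out). For thalamus against cortex it was 1 in place of 2 after the GC and length correction (0 to 2), and for hippocampus against thalamus 1 in place of 2 without the libraries low in *C1ql2* (0 to 4). The cause of these shifts was not tested.

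By the animal names in the labels, a replicate number does not mark the same animal in different treatments, nor always across regions. Correlations of same-numbered libraries' deviations ran from -0.433 to 0.49. In groups this small they cannot decide whether same-numbered libraries shared a batch. With the number as a replicate block, 0 of the 8 genes were called in the thalamus, where *Sox11* stood at 0.89 (adjusted p = 0.109) and 0 of all genes were called, and no other count of the 8 genes changed.

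Differences that changed sign were small or wide. For irradiated against WT CON mice these were *Cd24a* (0.085 with the block) and *Sox11* (-0.066 with quantile normalization, -0.074 with the GC and length correction) in the cortex, *Sox4* (0.26 without the libraries low in *C1ql2*, 0.33 with the correction as well), *Eomes* (0.24 and 0.40) and *Dcx* (-0.34 with the correction, -0.076 with both) in the hippocampus, and *Dlx2* (-0.17 with quantile normalization, -0.011 with the block) and *Eomes* (-0.073 with a pseudocount of 0.01, -0.31 with quantile normalization, -0.17 with voom) in the thalamus. For WT CON regions, *Sox4* became -0.30 (hippocampus minus cortex) without the libraries low in *C1ql2*. After the correction *Sox11* became 0.24 (hippocampus minus cortex), 0.12 (thalamus minus cortex) and 0.12 (hippocampus minus thalamus), where *Dcx* became 0.074 and *Cd24a* 0.18. With one library left out, values spanned 0 for *Cd24a* (-0.105 to 0.084) and *Sox11* (-0.037 to 0.148) in the cortex, *Sox4* (-0.626 to 0.344), *Dcx* (-0.106 to 1.02), *Eomes* (-1.60 to 0.757) and *Sox11* (-0.507 to 0.175) in the hippocampus, and *Dlx2* (-0.238 to 0.273) and *Eomes* (-0.181 to 0.605) in the thalamus. In WT CON mice they did so for *Sox4* (-0.304 to 0.635, hippocampus minus cortex), *Dlx2* (-0.224 to 0.314, thalamus minus cortex), and *Dcx* (-0.959 to 0.137), *Cd24a* (-0.32 to 0.539) and *Sox11* (-0.448 to 0.228), hippocampus minus thalamus. Reads limit *Mki67*, *Draxin*, *Igfbpl1* and *Eomes* most.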
